A study of Homo sapiens with 11 samples.

Results

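H/ACA small nucleolar RNA (snoRNA) genes were taken as every gene of the deposited tables whose symbol is SNORA followed by a digit. The rule gave 105 of 23287 genes, and it used no measured value. The genes were followed across 11 RNA sequencing libraries of human embryonic stem cells (hESCs), 1 library per group. For 9 libraries, cells were infected with a lentivirus carrying the pCCNE1 shRNA, the uCCNE1 shRNA or a control shRNA and were sampled at day 5. Each shRNA was used in H7 cells held in the naive medium 5iLA, in H1 cells held in the naive medium t2iGo and in primed H1 cells. The other 2 libraries came from uninfected H7 cells, in 5iLA and primed. CCNE1 encodes cyclin E1, and pCCNE1 is a primate-specific splice form of it. The labels do not say what uCCNE1 stands for. All cells of the 9 shRNA libraries, control included, had gone through lentiviral infection, and H1 and H7 are established lines, so each culture is a single line. No group has a second library. The 3 cultures stood in for replicates in tests of the shRNAs, the 3 shRNAs did so in tests of the cultures, and p-values therefore measure the spread between these libraries only.

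H/ACA snoRNAs are short nuclear RNAs folded into a pair of hairpins, joined by a hinge that carries the H box and followed by a tail that carries the ACA box. Each is bound by dyskerin (DKC1), NOP10, NHP2 and GAR1, and base pairing in the hairpins' pockets selects the uridines of ribosomal RNA that dyskerin turns into pseudouridine. Most human H/ACA snoRNAs have no promoter of their own. They are cut out of introns of host genes, many of which encode ribosomal proteins or translation factors, or are non-coding snoRNA host genes (SNHG).

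The sequences of 104 of the 105 genes were found in the GENCODE 29 transcripts of build GRCh38, which excludes SNORA59B. RefSeq lengths, known for all of the 105 genes but SNORA11E, ran from 121 to 250 nt, with a median of 134 nt. An ACA lay exactly 3 bases before the end in 79 of the 104 sequences (76.0%), and somewhere within the last 10 bases in 96 (92.3%). Among 282 box C/D snoRNA transcripts of at least 60 bases, the other large snoRNA class, the same counts were 4 (1.42%) and 14 (4.96%). The H box letters ANANNA, searched on the transcript strand, started 50 to 90 bases from the 5′ end in 101 H/ACA sequences (97.1%). GC content ran from 32.5% to 72.4%, with a median of 49.3%. Of the 8 genes with the highest mean RPKM over the 6 shRNA libraries of 5iLA and t2iGo, 6 are printed here, since most of the sequenced signal came from them, with the last ACA of the tail in capitals. SNORA63 lies at chr3:186787300-186787431 (plus strand), SNORA48 at chr17:7574713-7574847 (plus) and SNORA70 at chrX:154400281-154400415 (plus). SNORA71A lies at chr20:38427309-38427442 (minus), SNORA54 at chr11:2963771-2963893 (minus) and SNORA34 at chr12:48654382-48654518 (minus). All 6 end in an ACA tail and differ in the rest of their sequence, which holds the guide pockets.
SNORA63: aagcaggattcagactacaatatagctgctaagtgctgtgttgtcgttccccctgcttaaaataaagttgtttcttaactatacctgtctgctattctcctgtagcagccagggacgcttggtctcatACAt
SNORA48: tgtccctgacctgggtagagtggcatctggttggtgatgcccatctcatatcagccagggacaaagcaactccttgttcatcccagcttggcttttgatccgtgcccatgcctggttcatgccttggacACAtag
SNORA70: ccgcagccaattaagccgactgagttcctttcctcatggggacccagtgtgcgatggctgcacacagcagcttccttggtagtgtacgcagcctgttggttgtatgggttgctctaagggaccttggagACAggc
SNORA71A: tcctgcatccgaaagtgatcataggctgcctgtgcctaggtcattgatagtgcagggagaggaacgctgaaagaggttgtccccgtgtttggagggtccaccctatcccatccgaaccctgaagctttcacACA
SNORA54: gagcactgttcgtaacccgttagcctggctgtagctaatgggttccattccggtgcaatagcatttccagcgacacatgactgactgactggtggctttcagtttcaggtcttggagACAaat
SNORA34: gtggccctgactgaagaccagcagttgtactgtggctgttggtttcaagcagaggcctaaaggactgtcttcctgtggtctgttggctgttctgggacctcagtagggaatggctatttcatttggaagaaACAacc

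The deposited unit was RPKM, reads scaled by transcript length and library size. For RNAs this short it behaved as a ladder of steps. Of 356 values of at most 20 steps, 339 (95.2%) were whole multiples, within 0.1, of the value that a single sequenced fragment stands for in that library. A fragment is a counted read or read pair; which of these the authors counted is not given in the sources used here. The step at 135 nt ran from 5.84 RPKM in untreated 5iLA H7 to 77.8 RPKM in pCCNE1 t2iGo H1, a 13.3-fold range. At 135 nt the values matched a division by an effective length of 1.81 to 7.14 nt, and that length alone differed 3.94-fold between libraries. Fragments per M fragments of the library (FPM) leave that division out, so RPKM and FPM differ in what they divide by, and which lies closer to the amount of RNA cannot be told from these files. Fragment numbers could be recovered for the 98 genes of 120 to 160 nt (RefSeq length, which can differ from GENCODE's by a few bases), and are given below beside RPKM. The 6 longer genes (SNORA81, SNORA23, SNORA74A, SNORA74B, SNORA58 and SNORA53) and SNORA11E stay on RPKM.

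**Figure D1:**
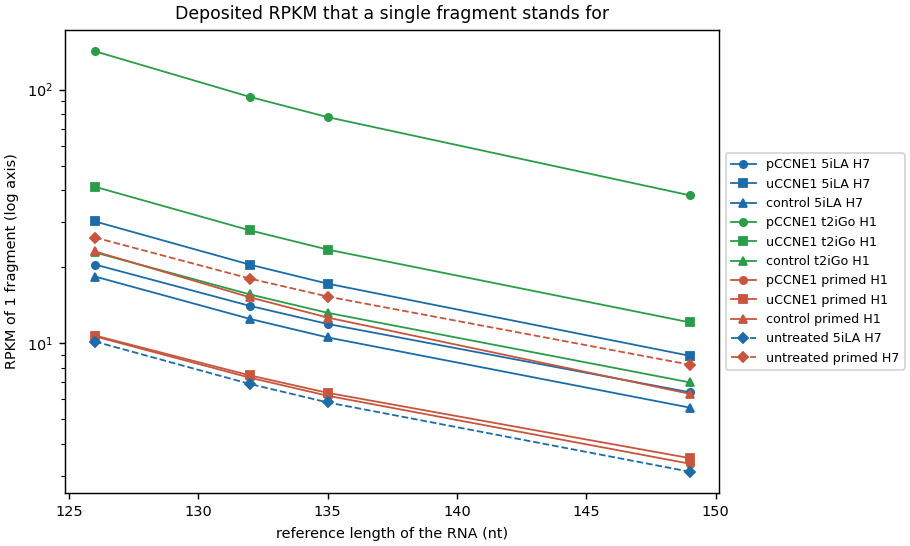
RPKM that 1 fragment stands for (y, log axis) against the reference length of the RNA in nt (x), 1 line per library, coloured by culture, with markers for the shRNA and dashed lines for the untreated libraries. At 135 nt the lines run from 5.84 RPKM in untreated 5iLA H7 to 77.8 RPKM in pCCNE1 t2iGo H1, and every line falls as length grows.

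Depth, estimated from the steps, was 14.4, 12.3 and 18.4 M fragments in 5iLA H7 for the pCCNE1, uCCNE1 and control shRNA, 7.10, 10.5 and 15.2 M for t2iGo H1, 25.7, 22.0 and 20.8 M for primed H1, 27.4 M for untreated 5iLA H7 and 14.6 M for untreated primed H7. The labels do not say whether the primed H1 libraries were prepared with the rest. A separate preparation cannot be told apart from the primed state. CCNE1 itself is listed once per library, and which of its splice forms that value counts is not given. It stood at 8.38 (pCCNE1), 5.27 (uCCNE1) and 14.1 RPKM (control) in 5iLA H7 and at 5.25, 5.38 and 9.65 RPKM in t2iGo H1. In primed H1 it stood at 10.5, 6.75 and 11.95 RPKM. Each CCNE1 shRNA library thus lay below the control of its culture on this value. Naive markers went against the label of t2iGo. DPPA5 was at 156 to 273 RPKM in the 5iLA shRNA libraries but at 0 to 0.138 RPKM in t2iGo and 0 to 0.377 RPKM in primed H1, and the primed marker ZIC2 was at 16.2 to 22.0 RPKM in t2iGo. The t2iGo libraries also held the fibroblast collagen COL3A1 at 47.3 to 137 RPKM, against 0.269 to 2.60 RPKM in 5iLA and 0.180 to 1.08 RPKM in primed H1. Other genes of the 6 on the fibroblast list went the other way, such as THY1, at 6.73 to 8.91 RPKM in t2iGo against 94.5 to 195 RPKM in primed H1. The list summed to 11.2, 14.4 and 3.29 RPKM in 5iLA with the pCCNE1, uCCNE1 and control shRNA, 226, 136 and 75.7 RPKM in t2iGo and 228, 155 and 146 RPKM in primed H1, so its sum does not set t2iGo apart from primed H1, and its part in the results below was not tested. The library labelled untreated 5iLA H7 had DPPA5 at 42.0 RPKM, between the 5iLA shRNA libraries and the primed ones.

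Detection was sparse and differed by culture. Of the 105 genes, 50 (pCCNE1), 51 (uCCNE1) and 61 (control) were above 0 in 5iLA H7, 29, 50 and 48 in t2iGo H1, and 37, 36 and 26 in primed H1. The untreated libraries had 73 in 5iLA H7 and 39 in primed H7. Genes listed at 0 therefore numbered 55, 54 and 44 in 5iLA H7 for the pCCNE1, uCCNE1 and control shRNA, 76, 55 and 57 in t2iGo H1, 68, 69 and 79 in primed H1, 32 in untreated 5iLA H7 and 66 in untreated primed H7. A value of 0 is weak evidence here. A count of 0 allows up to 3 fragments, which at 135 nt correspond to 17.5 RPKM in untreated 5iLA H7 and 234 RPKM in pCCNE1 t2iGo H1. In primed H1 no gene with an estimate passed 9 fragments, so their number says little about amount.

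Just 5 genes were above 0 in all 11 libraries: SNORA63, SNORA48, SNORA70, SNORA67 and SNORA23. By contrast 25 were at 0 in all 11. The 6 shRNA libraries of 5iLA and t2iGo shared 24 detected genes, and the 3 primed H1 libraries shared 14. A total of 22 genes were seen in a 5iLA or t2iGo shRNA library but in no primed H1 library, 8 the other way round, and 3 in an untreated library alone. No RNA of the shortest class was seen: every one of the 1320 genes of at most 100 nt in the tables was at 0 in all 11 libraries, and 234 of these were box C/D snoRNAs. No H/ACA gene is that short. Within 120 to 160 nt, 25 of 98 H/ACA genes were at 0 throughout, against 0 of 6 box C/D genes and 4 of 12 small Cajal body RNA (SCARNA) genes.

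**Figure D2:**
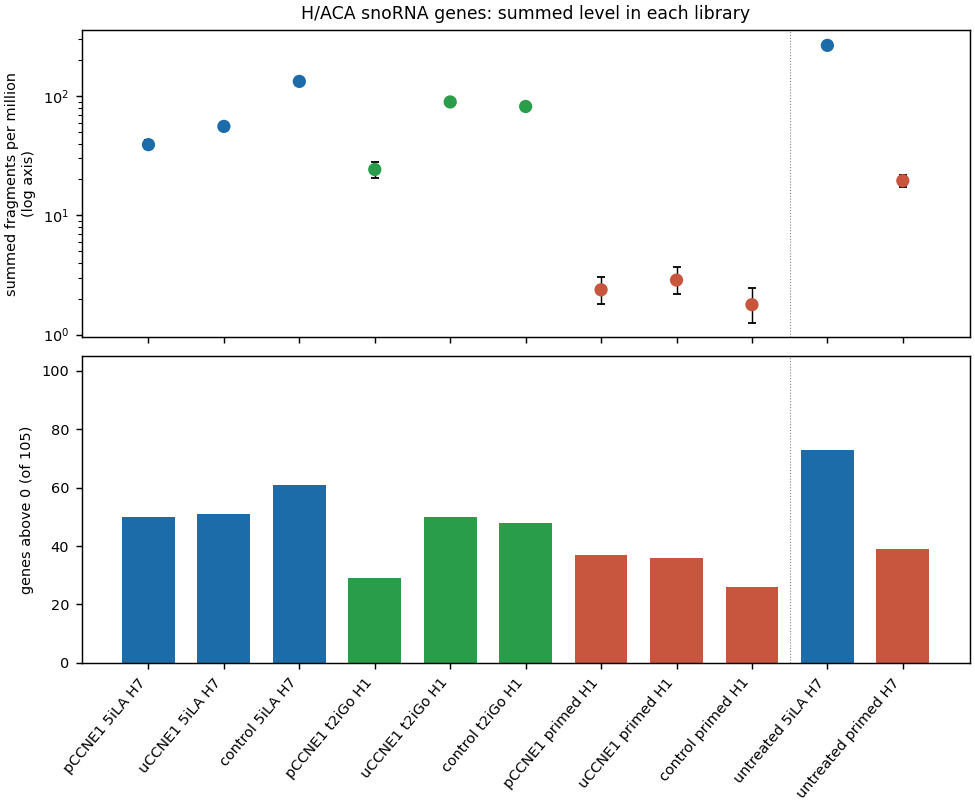
Top, summed FPM of the 98 H/ACA snoRNA genes with a fragment estimate (log axis), a point per library with its 95% Poisson interval; bottom, number of the 105 genes above 0 RPKM. Libraries run along x, with 5iLA in blue, t2iGo in green and primed in red and the untreated libraries right of the dotted line; the 3 primed H1 libraries sit at 1.78 to 2.86 FPM, below all others.

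Summed over the 98 genes, H/ACA snoRNAs made up 39.1 (pCCNE1; 95% Poisson interval 36.0 to 42.5), 55.7 (uCCNE1; 51.6 to 60.02) and 133 (control; 128 to 138) FPM in 5iLA H7. In t2iGo H1 the sums were 24.2 (20.7 to 28.1), 89.3 (83.6 to 95.2) and 81.8 (77.3 to 86.5) for the pCCNE1, uCCNE1 and control shRNA. In primed H1 they were 2.38 (1.82 to 3.05), 2.86 (2.20 to 3.66) and 1.78 (1.25 to 2.45), resting on 61, 63 and 37 fragments in all. The untreated libraries had 266 (260 to 272) in 5iLA H7 and 19.5 (17.3 to 21.9) in primed H7. Every 5iLA and t2iGo library lay above every primed one, and within the primed state H7 lay above H1. These intervals cover counting error only, and in bulk RNA fewer cells with the RNA and less RNA per cell cannot be told apart. As a share of all summed RPKM the 105 genes took 4.88%, 8.404% and 11.5% in 5iLA H7 with the pCCNE1, uCCNE1 and control shRNA, 8.27%, 12.02% and 9.19% in t2iGo H1, 0.124%, 0.126% and 0.150% in primed H1, 17.8% in untreated 5iLA H7 and 3.05% in untreated primed H7.

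A handful of genes carried most of this signal. Outside primed H1 the top 5 genes of a library held 60.8% to 73.7% of its H/ACA fragments, led by SNORA63 or SNORA48. SNORA63, from an EIF4A2 host transcript, had 8.20 (pCCNE1), 11.2 (uCCNE1) and 36.0 (control) FPM in 5iLA H7, 7.33, 23.9 and 18.6 in t2iGo H1 and 0.117, 0.318 and 0.144 in primed H1, with 50.4 in untreated 5iLA H7 and 5.20 in untreated primed H7. SNORA48, from EIF4A1, had 5.77, 7.90 and 13.8 FPM in 5iLA H7 with the same shRNAs in that order, 3.52, 21.4 and 24.0 in t2iGo H1 and 0.0779, 0.182 and 0.0481 in primed H1, with 83.7 in untreated 5iLA H7 and 3.15 in untreated primed H7. Both were low in all 3 primed H1 libraries, with no overlap with the other cultures. In RPKM SNORA63 stood at 1404, 2368 and 6961 in 5iLA H7, at 4048, 5897 and 3740 in t2iGo H1 and at 18.6, 44.6 and 37.8 in primed H1, so the t2iGo libraries are ordered differently on the 2 scales. The rest of the genes were sparse. Among genes with a fragment estimate, those with at least 10 fragments numbered 9 (pCCNE1), 15 (uCCNE1) and 28 (control) in 5iLA H7. They numbered 3, 14 and 16 in t2iGo H1 and 0 in each primed H1 library. The untreated libraries had 34 in 5iLA H7 and 7 in primed H7.

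SNORA68 had 2.57 (pCCNE1), 4.31 (uCCNE1) and 11.4 (control) FPM in 5iLA H7 and 4.65, 9.87 and 7.75 in t2iGo H1, was at 0 in all 3 primed H1 libraries, and had 4.79 in untreated 5iLA H7 and 1.37 in untreated primed H7. SNORA70, from the ribosomal protein gene RPL10, had 3.96, 6.59 and 9.15 in 5iLA H7 for the same shRNAs, 1.13, 3.89 and 4.14 in t2iGo H1, 0.234, 0.409 and 0.337 in primed H1, 19.9 in untreated 5iLA H7 and 1.23 in untreated primed H7. SNORA71A, from the non-coding SNHG17, had 3.27, 5.78 and 15.4 in 5iLA H7, 0.986, 4.08 and 4.07 in t2iGo H1, 0.0389, 0.136 and 0 in primed H1, 24.5 in untreated 5iLA H7 and 1.37 in untreated primed H7. The order of these genes was not the same in every culture: SNORA63 led in all 3 shRNA libraries of 5iLA, whereas SNORA48 led in the untreated 5iLA library and in the t2iGo control.

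SNORA54 was highest in t2iGo, with 0.278 (pCCNE1), 0.407 (uCCNE1) and 1.12 (control) FPM in 5iLA H7 against 0.282, 2.53 and 3.36 in t2iGo H1 and 0 in every primed H1 library. SNORA43, from SNHG7, had 2.01, 2.87 and 5.19 in 5iLA H7, 0.986, 1.91 and 1.65 in t2iGo H1 and 0, 0.0722 and 0.0424 in primed H1. SNORA34, from the chromatin gene KANSL2, had 0.834, 0.896 and 3.98 in 5iLA H7, 1.27, 4.36 and 3.02 in t2iGo H1 and 0, 0.0455 and 0 in primed H1. In the primed H1 libraries the highest mean RPKM belonged to SNORA70, SNORA67 and SNORA40. SNORA67, the second guide of EIF4A1, had 7, 5 and 4 fragments there with the pCCNE1, uCCNE1 and control shRNA, and SNORA40, from TAF1D, had 4, 2 and 2, numbers too small to order.

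**Figure D3:**
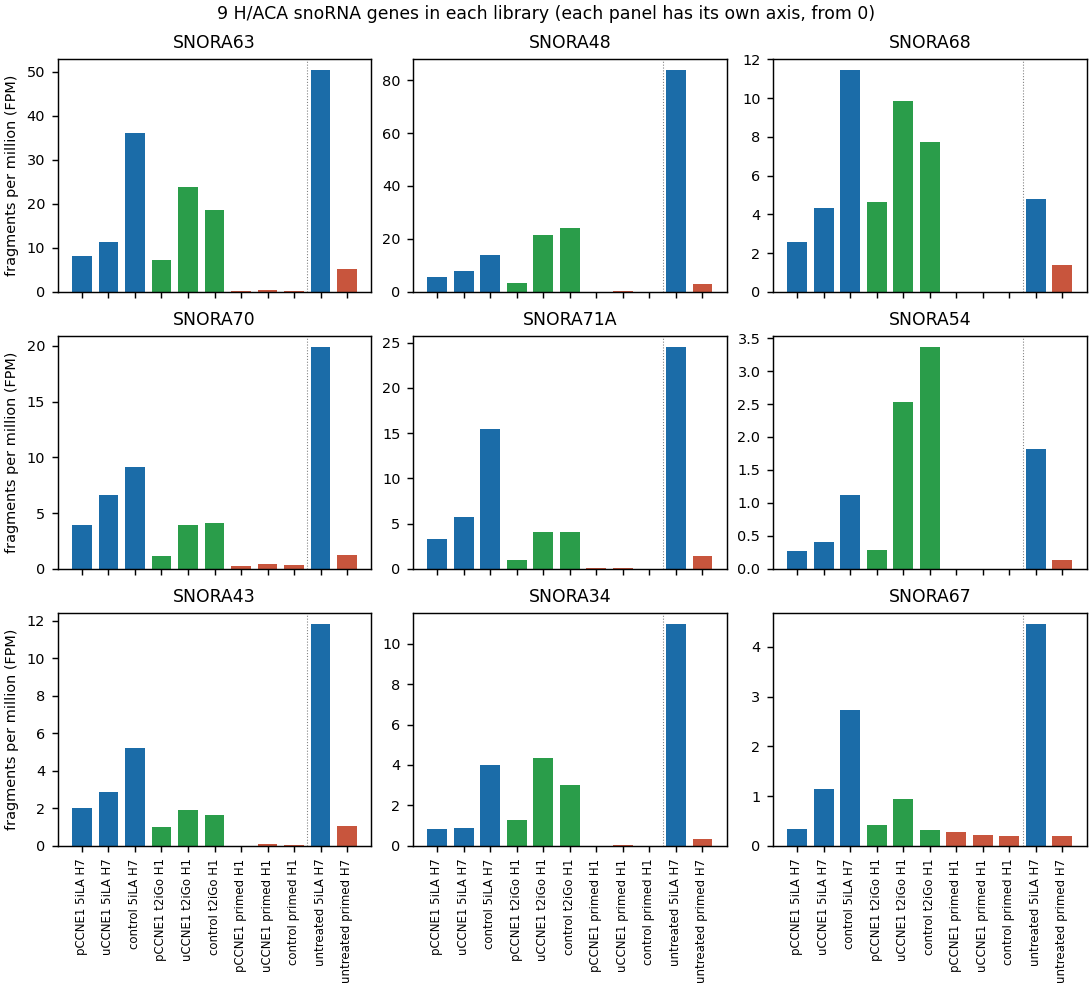
FPM of 9 H/ACA snoRNA genes (y, linear from 0, each panel its own axis) in each of the 11 libraries (x), bars coloured by culture, 1 library per bar, no error bars because no group has a second library. Bars of SNORA63 reach 36.0 in control 5iLA H7 and 50.4 in untreated 5iLA H7, and those of the primed H1 libraries are the lowest shRNA bars in every panel, with SNORA67 at 0.273, 0.227 and 0.193 (pCCNE1, uCCNE1, control), against 0.328 in control t2iGo H1.

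The first test compared the cultures. Of the 105 genes, 73 had a mean of at least 1 RPKM over the 9 shRNA libraries and entered the fit across 12116 genes (limma on log2(RPKM + 1), Benjamini-Hochberg adjusted p under 0.05). In t2iGo H1 against primed H1, the same line in another medium, 35 of the 73 rose and 8 fell, where 8.77% of all genes tested rose and 63% fell. A few fragments in 1 culture were enough to pass the filter: 22 of the 73 were at 0 in all 3 primed H1 libraries, 17 in all of t2iGo and 9 in all of 5iLA, so these entered through the cultures where they are higher. The median log2 difference was 2.02 over these genes and -0.82 over all genes. Other scalings moved the median of all genes to 0.03 (quantile normalization, 34.2% of genes higher and 33.1% lower) and 0.19 (rescaling on genes other than short RNAs, 38.9% and 29.1%). The H/ACA median was 2.39 and 3.17 under these, with 34 and 32 genes higher and 6 lower under each. The 6 smallest p-values belonged to SNORA48, SNORA68, SNORA54, SNORA24, SNORA63 and SNORA7B. SNORA48 differed by 7.76 ± 0.30 (log2(RPKM + 1), SE) with an adjusted p of 1.64e-08 and SNORA63 by 7.10 ± 0.39 with an adjusted p of 1.13e-07, and both were higher for all 3 shRNAs. SNORA68 was at 0 in primed H1, where 3 fragments would be at most 0.144 in FPM. Its lowest t2iGo value, 4.65 in FPM, was 32.2-fold that level. For SNORA54 the same ratio was 1.95-fold, on 2 fragments in pCCNE1 t2iGo. These ratios leave out counting error in the t2iGo value, so they are not lower bounds. SNORA24 and SNORA7B, with 1 fragment each in pCCNE1 t2iGo and 0 in primed H1, gave no ratio above 1.

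FPM, an alternative chosen after the data were seen, replaced RPKM only for H/ACA genes with a fragment estimate, and all other genes stayed on RPKM. In t2iGo against primed H1, 24 H/ACA genes then rose and 2 fell, beside 8.75% and 63.2% of all genes. A fragment estimate existed for 21 of these risers and 0 of these fallers, so the 2 fallers stand on RPKM. Of the 32 RPKM risers with a fragment estimate, 21 were called on both scales. SNORA63 then differed by 4.49 ± 0.35 and SNORA48 by 4.43 ± 0.39 (log2 of FPM plus 0.5, SE), both past the threshold. None of the 6 RPKM fallers with an estimate was called again. Of the 8 RPKM fallers, SNORA11D, SNORA11E, SNORA17, SNORA51, SNORA4, SNORA62 and SNORA2A never passed 5 fragments in an shRNA library where a fragment number exists. SNORA81 has no fragment estimate. It stood at 0, 4.80 and 5.83 RPKM in t2iGo with the pCCNE1, uCCNE1 and control shRNA, against 14.5, 6.29 and 7.09 RPKM in primed H1.

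In 5iLA H7 against primed H1, which differ in line and medium, 44 of the 73 genes rose and 6 fell, where 7.74% of all genes rose and 76.8% fell. The median log2 difference was 2.98 over these genes and -1.23 over all genes. Quantile normalization moved the median of all genes to -0.08 (30.6% higher, 35.2% lower), with 45 H/ACA genes higher and 4 lower, and rescaling moved it to -0.05 (31.5% higher, 33.5% lower), with 43 and 5. SNORA24 led by p-value, with 7.74 ± 0.32 and an adjusted p of 4.60e-09. SNORA48 differed by 6.60 ± 0.30 with an adjusted p of 9.61e-09, SNORA63 by 6.45 ± 0.39 with 6.69e-08 and SNORA70 by 4.35 ± 0.23 with 2.82e-08. The lowest 5iLA value was 17.8-fold the level of 3 fragments in primed H1 for SNORA68, 1.93-fold for SNORA54 and 3.37-fold for SNORA24. Counting error in the 5iLA value is again left out. With FPM for the genes with an estimate, 38 rose and 1 fell, beside 7.75% and 77% of all genes. A fragment estimate existed for 34 of these risers and 0 of these fallers. Of the 40 RPKM risers with an estimate, 33 were called on both scales. The 6 fallers on RPKM were SNORA11D, SNORA11E, SNORA71B, SNORA17, SNORA4 and SNORA51, none above 3 fragments in an shRNA library where a fragment number exists.

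The 2 cultures labelled naive differed from each other too, with line and medium changing together. In 5iLA H7 against t2iGo H1, 21 of the 73 genes rose and 6 fell, beside 14.9% and 40.1% of all genes. The median log2 difference was 0.74 for these genes and -0.31 for all genes. Quantile normalization moved the median of all genes to -0.03 (25.9% higher, 29% lower), with 18 H/ACA genes higher and 6 lower, and rescaling moved it to -0.15 (23.4% higher, 34.5% lower), with 17 and 4. SNORA9, from SNHG15, led with 4.78 on the log2 scale and had 1, 1 and 6 fragments in 5iLA against 0 in each t2iGo library, so it rests on few molecules, as does SNORA62 with 1, 1 and 2 against 0. SNORA70 rose by 0.58 ± 0.23 with an adjusted p of 0.0499. Among the 6 that fell, SNORA54 (-2.10 ± 0.39, adjusted p = 0.000865), SNORA48 (-1.16 ± 0.30, adjusted p = 0.00624) and SNORA68 (-1.16 ± 0.43, adjusted p = 0.0400) had enough fragments to count, and SNORA71B, SNORA20 and SNORA38B had at most 3. With FPM for the genes with an estimate, 15 rose and 2 fell, beside 15.2% and 40.5% of all genes. A fragment estimate existed for 12 of these risers and for the 2 fallers. Only 7 of 18 RPKM risers with an estimate and 1 of 6 RPKM fallers were called on both scales. The fallers on FPM were SNORA54 at -0.998 ± 0.34 and SNORA80B at -0.73 ± 0.26. SNORA68 changed sides between these cultures by shRNA: with the control it had 11.4 in FPM in 5iLA and 7.75 in t2iGo. With the pCCNE1 shRNA it had 2.57 in 5iLA and 4.65 in t2iGo, and with the uCCNE1 shRNA 4.31 and 9.87.

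Untreated H7 cells gave a comparison of 5iLA with primed cells within 1 line and 1 table. Of 73 H/ACA genes tested there, 63 were over 2-fold higher in 5iLA and 2 over 2-fold lower (RPKM + 1), where 11% of 11015 genes were higher and 3.94% lower. The median log2 difference was 3.27 over these genes and 0.23 over all genes. The filter on low values used these same 2 libraries. Of the 105 genes, 39 were above 0 in untreated primed H7, so many of the 73 passed through 5iLA alone. SNORA1, for example, counted as higher with 1 fragment in 5iLA and 0 in primed H7. With 1 library a side no test is possible. SNORA48 had 2291 fragments in 5iLA H7 and 46 in primed H7, a ratio in FPM of 26.6 (95% counting interval 19.9 to 36.4). SNORA71A had 670 and 20, a ratio of 17.9 (11.5 to 29.5), SNORA70 had 544 and 18, a ratio of 16.1 (10.1 to 27.4), and SNORA63 had 1378 and 76, a ratio of 9.69 (7.69 to 12.4). SNORA68 differed least among the leading genes, with 131 and 20 fragments and a ratio of 3.50 (2.18 to 5.92). Of the 28 genes with at least 10 fragments in control 5iLA H7, a library outside this pair, 27 were higher in 5iLA and 1 lower, and for 25 the interval lay above 1.

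The largest differences in RPKM within that pair were SNORA71D, SNORA52 and SNORA80, with 129, 76 and 25 fragments in untreated 5iLA H7 and 0 in untreated primed H7. In the other direction stood SNORA40, with 4 fragments in 5iLA and 5 in primed, SNORA2A with 2 and 2, and SNORA47 with 5 and 3, whose RPKM values were 37.8 and 122, 11.7 and 30.5, and 25.02 and 39.4. In FPM SNORA2A had 0.0731 in 5iLA and 0.137 in primed, and SNORA47 had 0.183 and 0.205, so both were lower in 5iLA on each scale, on few fragments. Summed over all 98 genes the untreated 5iLA library stood 13.6-fold (12.1 to 15.4) above the untreated primed library in FPM, and 9.55-fold in RPKM. The same step between the control shRNA libraries, where line differs as well, was 74.5-fold (53.9 to 106) in FPM and 50.8-fold in RPKM, and the control t2iGo library stood 45.9-fold (33.1 to 65.5) above control primed H1.

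Set beside each other across tables that were normalised separately, the 2 primed cultures were further apart than the 2 cultures in 5iLA. Untreated primed H7 had 10.95-fold the summed FPM of control primed H1 (7.76 to 15.9). Of the 34 genes with at least 10 fragments in untreated 5iLA H7, 26 were higher in primed H7, 2 lower and 6 equal, 11 with an interval above 1. Untreated 5iLA H7 had 2.005-fold the sum of control 5iLA H7 (1.91 to 2.10). There the genes split: of 16 with at least 10 fragments in control t2iGo H1, 11 were higher and 5 lower without infection, 8 and 2 of them with an interval clear of 1. SNORA48 was 6.05-fold (5.31 to 6.92) of its control 5iLA value, whereas SNORA68 was 0.419-fold (0.334 to 0.523) and SNORA40 0.0958-fold (0.0244 to 0.274). Infection, time in culture and the table cannot be told apart in this 5iLA pair. In the primed pair the cell line differs as well (H7 against H1), so the gaps of the 2 pairs are not alike.

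The shRNA libraries were then set against the control of their own culture, with 1 library on each side and counting intervals in place of a test. In 5iLA H7 the H/ACA genes stood lower with both CCNE1 shRNAs. The sum in FPM was 0.295 of the control with pCCNE1 (0.269 to 0.323) and 0.420 with uCCNE1 (0.385 to 0.457), and 0.265 and 0.455 in RPKM. Of the 73 genes tested, 45 were over 2-fold lower and 5 higher with pCCNE1, where 4.9% of all genes were lower and 0.875% higher. With uCCNE1 40 were lower and 5 higher, where 4.94% of all genes were lower and 0.528% higher. Of the 34 genes with at least 10 fragments in untreated 5iLA H7, which is in neither pair, 30 were lower and 3 higher with pCCNE1, 24 with an interval below 1, and 30 were lower and 3 higher with uCCNE1, 19 with an interval below 1; none had an interval above 1. Both comparisons use the same control library, which also had the most H/ACA fragments of the 9. Other features moved with them in 5iLA H7: RMRP, another abundant short RNA, stood at 6202 (pCCNE1), 5418 (uCCNE1) and 15609 RPKM (control), and box C/D snoRNAs summed to 1653, 3613 and 7143 RPKM. The 6 naive markers summed to 355, 284 and 554 RPKM there and the 6 primed markers to 49.5, 44.3 and 19.9 RPKM, and their part in the result was not tested.

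Named genes show that spread in 5iLA H7. SNORA63 had 118 fragments with pCCNE1, 138 with uCCNE1 and 661 with the control, which in FPM is 0.228 (0.186 to 0.277) of the control for pCCNE1 and 0.312 (0.258 to 0.375) for uCCNE1. SNORA71A had 47, 71 and 283, with ratios of 0.212 (0.152 to 0.289) and 0.375 (0.285 to 0.488), and SNORA68 had 37, 53 and 210, with ratios of 0.225 (0.154 to 0.320) and 0.377 (0.274 to 0.512). The smallest differences among the leading genes were those of SNORA48, at 0.417 (0.321 to 0.536) and 0.571 (0.447 to 0.724), and SNORA70, at 0.433 (0.315 to 0.588) and 0.720 (0.546 to 0.945). SNORA67 was the lowest of the 9 plotted genes with pCCNE1, with 5, 14 and 50 fragments and a ratio of 0.128 (0.0397 to 0.318). Effective lengths were alike in these 3 libraries (5.84, 4.74 and 5.17 nt for pCCNE1, uCCNE1 and control), and RPKM ratios had the same direction for each of these genes.

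In t2iGo H1 the 2 shRNAs parted. The pCCNE1 library had 0.296 of the control's summed FPM (0.251 to 0.348), and of the same 34 genes 29 were lower and 3 higher, 11 with an interval below 1. In RPKM, however, the sum was 0.804 of the control, and 11 of the 34 were higher and 21 lower. The effective length was 1.81 nt in that library and 4.99 nt in its control. SNORA63 had 52 fragments with pCCNE1 and 284 with the control, a ratio of 0.393 (0.287 to 0.530) in FPM but 1.08 in RPKM. SNORA68 had 33 and 118, a ratio of 0.600 (0.395 to 0.889) in FPM but 1.67 in RPKM. SNORA48, with 25 and 365 fragments, was lower on both scales, at 0.147 (0.0939 to 0.221) in FPM and 0.405 in RPKM, and so was SNORA54, with 2 and 51.2 fragments and 0.243 in RPKM. Past 2-fold on the RPKM + 1 scale, 26 of the 73 genes were lower and 8 higher, where 2.72% of all genes were lower and 0.735% higher.

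The uCCNE1 library of t2iGo lay close to its control. Its summed FPM were 1.09 of the control (1.002 to 1.19) and its summed RPKM 1.34. Of the 34 genes 20 were higher and 13 lower in FPM, 2 with an interval above 1 and 0 below. SNORA63 was at 1.28 (1.08 to 1.52), SNORA48 at 0.895 (0.755 to 1.06), SNORA70 at 0.940 (0.619 to 1.42) and SNORA71A at 1.002 (0.663 to 1.503) of the control. Past 2-fold, 6 of the 73 genes were lower and 15 higher, where 0.636% of all genes were lower and 0.38% higher. The genes with the largest fold rise on the RPKM + 1 scale, SNORA77, SNORA18 and SNORA19, had 2, 3 and 1 fragments with uCCNE1 and 0 with the control.

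Primed H1 gave too few fragments to compare. No H/ACA gene with a fragment estimate reached 10 fragments in any of its 3 libraries. The sum in FPM was 1.33 of the control with pCCNE1 (0.872 to 2.06) and 1.61 with uCCNE1 (1.06 to 2.48), while summed RPKM was 0.783 and 0.813 of the control, so the direction depends on the scale. Past 2-fold, 13 genes were lower and 18 higher with pCCNE1, where 3.61% of all genes were lower and 0.924% higher, and 13 were lower and 15 higher with uCCNE1, where 2.82% were lower and 0.619% higher. SNORA45, SNORA4 and SNORA72, the largest fold rises with pCCNE1 on the RPKM + 1 scale, had 4, 3 and 2 fragments against 0. SNORA10, the largest fold drop there, had 0 against 2.

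**Figure D4:**
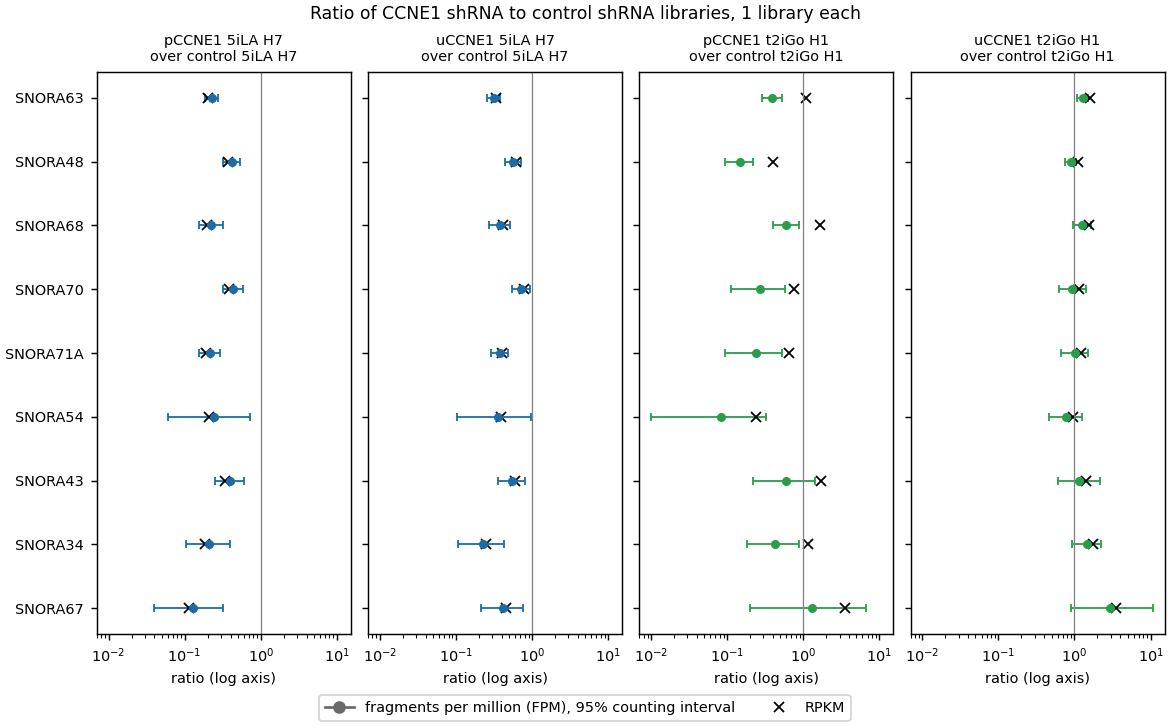
Ratio of each CCNE1 shRNA library to the control of its culture (x, log axis) for 9 H/ACA snoRNA genes, 1 library a side: filled circles give FPM with 95% counting intervals, crosses give RPKM, and the vertical line marks 1. In 5iLA H7 circles and crosses lie close together and at or below 0.786, while in pCCNE1 t2iGo H1 crosses lie to the right of circles, with SNORA63 at 0.393 in FPM and 1.08 in RPKM.

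With the 3 cultures as replicates, no H/ACA gene passed the test in any of the shRNA comparisons, and neither did any other gene. For pCCNE1 against control 0 of 12116 genes were called (0%), with 1792 at an unadjusted p under 0.05, among them 3 higher and 19 lower H/ACA genes. The median log2 difference was -0.97 over the 73 genes and -0.15 over all genes. The smallest p in the lower direction belonged to SNORA10 (-4.57 ± 0.81, adjusted p = 0.196), SNORA22 (-4.29 ± 0.96, adjusted p = 0.200) and SNORA70 (-1.01 ± 0.23, adjusted p = 0.200). SNORA10 had 6, 0 and 0 fragments with pCCNE1 in 5iLA, t2iGo and primed H1, against 30, 7 and 2 with the control, and SNORA22 had 7, 0 and 0 against 42, 7 and 1. In the higher direction stood SNORA11B (2.59 ± 0.66, adjusted p = 0.200), with at most 1 fragment in any shRNA library, SNORA47 (0.98 ± 0.41, adjusted p = 0.300) and SNORA4 (1.38 ± 0.61, adjusted p = 0.322).

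For uCCNE1 against control 0 genes were called (0%), with 1236 at an unadjusted p under 0.05, among them 3 higher and 8 lower H/ACA genes. The medians were -0.12 over the 73 genes and -0.14 over all genes. SNORA3 (-4.10 ± 0.64, adjusted p = 0.211), SNORA28 (-3.27 ± 0.81, adjusted p = 0.349) and SNORA2A (-2.48 ± 0.80, adjusted p = 0.362) had the smallest p in the lower direction, on at most 3 fragments in any library compared. SNORA18 (3.39 ± 0.95, adjusted p = 0.349), SNORA5A (2.56 ± 0.82, adjusted p = 0.362) and SNORA84 (1.80 ± 0.61, adjusted p = 0.390) had the smallest p in the higher direction. SNORA84 had 11, 4 and 2 fragments with uCCNE1 in 5iLA, t2iGo and primed H1, against 15, 3 and 0 with the control, which in 5iLA is 0.895 FPM with uCCNE1 and 0.817 FPM with the control.

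The tests changed with the cultures included. Without the primed H1 libraries, 3 genes fell with uCCNE1 (SNORA28, SNORA45 and SNORA6) and 4 with pCCNE1 (the same 3 and SNORA7A), where 0.033% and 0.0413% of all genes fell. SNORA28, SNORA45 and SNORA6 rest on at most 4 fragments. SNORA7A had 3.51 and 0.38 fragments with pCCNE1 in 5iLA and t2iGo, against 43.6 and 19 with the control. Without the t2iGo libraries, 24 genes were called with uCCNE1 (6 higher, 18 lower; 1.02% of all genes in either direction) and 23 with pCCNE1 (5 higher, 18 lower; 0.776%). Many of these rest on at most 4 fragments in any shRNA library. With uCCNE1 these were 4 of the 6 higher and 12 of the 18 lower genes. With pCCNE1 they were all 5 higher genes and 8 of the 17 lower genes with an estimate. On FPM, SNORA23 alone was then called with uCCNE1 (1.33% of all genes in either direction), a gene that stays on RPKM, and 7 genes fell with pCCNE1, where 1.15% of all genes were called in either direction: SNORA34, SNORA63, SNORA67, SNORA68, SNORA71A, SNORA7A and SNORA74B. Of these 7, SNORA74B stays on RPKM. SNORA63 fell by 1.07 ± 0.28 there on FPM with an adjusted p of 0.0161, and SNORA71A fell by 0.99 ± 0.26 with an adjusted p of 0.0224. With primed H1 left out and FPM used, SNORA57, SNORA6, SNORA7A and SNORA8 fell with pCCNE1, where 0.0495% of all genes fell, and SNORA7A fell by 1.80 ± 0.19 with an adjusted p of 0.00401. With uCCNE1 0 were called there by limma, where 0.00825% of all genes fell, with 2 higher and 13 lower H/ACA genes at an unadjusted p under 0.05. SNORA7A and SNORA7B share 98.6% of their sequence, so the authors' counting could have split reads between them.

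The pCCNE1 and uCCNE1 shRNAs were also compared with each other. No gene was called (0% of 12116), with 495 at an unadjusted p under 0.05, among them 3 higher and 19 lower H/ACA genes. The medians were -0.52 over the 73 genes and -0.02 over all genes. SNORA18 (-5.28 ± 0.95, adjusted p = 0.614), SNORA10 (-3.67 ± 0.81, adjusted p = 0.845) and SNORA22 (-4.16 ± 0.96, adjusted p = 0.845) had the smallest p among genes lower with pCCNE1. Among genes higher with pCCNE1 these were SNORA11B, SNORA3 and SNORA76, each at an adjusted p of 0.990. Summed in FPM, pCCNE1 stood at 0.703 (0.628 to 0.787) of uCCNE1 in 5iLA H7, at 0.271 (0.229 to 0.320) in t2iGo H1 and at 0.829 (0.574 to 1.199) in primed H1; in RPKM these were 0.583, 0.599 and 0.963. Without the t2iGo libraries 17 H/ACA genes were called (7 higher, 10 lower), where 0.33% of all genes were. All 7 higher and 4 of the 10 lower genes had at most 4 fragments in any shRNA library. With FPM 2 were called (0.413%), SNORA81 higher and SNORA74B lower, both of which stay on RPKM.

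Whether an shRNA effect differed between the 5iLA and t2iGo cultures and primed H1 was tested directly, with 2 residual degrees of freedom. For uCCNE1, 8 of the 73 H/ACA genes passed (2 higher, 6 lower), where 0.157% of all genes did, and for pCCNE1 8 passed (1 higher, 7 lower), where 0.223% did. On FPM 0 passed for uCCNE1 (0.107% of all genes; 1 higher and 4 lower H/ACA genes at an unadjusted p under 0.05 by limma), and SNORA7A alone passed for pCCNE1 (0.173%). Most of these genes had at most 4 fragments in every shRNA library; SNORA57 reached 36, SNORA8 37.0 and SNORA7A 43.6, all in control libraries of 5iLA or t2iGo.

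Host genes were assigned from the annotation. A host on the same strand was found for 103 of the 104 placed genes; 58 lay in an intron and 45 overlapped an exon of some annotated transcript, where reads of the host cannot be told apart. The 78 hosts included 15 with several guides, which held 40 H/ACA genes. By class, 17 genes lay in ribosomal protein genes, 16 in SNHG genes, 8 in translation factor genes and 62 elsewhere. Translation factor hosts were the largest class by signal: in control 5iLA H7 their guides summed to 967 fragments, 661 of them from SNORA63, against 509 for ribosomal protein hosts, 460 for SNHG hosts and 485 for all other hosts.

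In some hosts with several guides, the guides stood far apart. EIF4A2 hosts SNORA63 with 661 fragments in control 5iLA H7 and SNORA4 with 0. TAF1D hosts SNORA1, SNORA8, SNORA18, SNORA25, SNORA32 and SNORA40, which had 0, 23.0, 4, 2, 0 and 27.8 fragments there. SNHG17 hosts SNORA71A with 283, and SNORA71B, SNORA71C and SNORA71D with 0, 15 and 4. KANSL2 hosts SNORA34 with 73, and SNORA2A and SNORA2B with 2 and 0. RPS2 hosts SNORA10 with 30 and SNORA64 with 7. In other hosts the guides were alike and rare in that library. TCP1 hosts SNORA20 and SNORA29 with 3 each, and RPL27A hosts SNORA3 and SNORA45 with 1 each.

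Across cultures, levels of guide and host differed in order. EIF4A2 mRNA stood at 75.3 (pCCNE1), 87.5 (uCCNE1) and 185 RPKM (control) in 5iLA H7, at 111, 128 and 124 in t2iGo H1 and at 371, 179 and 254 in primed H1, where SNORA63 had 3, 7 and 3 fragments. EIF4A1 stood at 69.8, 54.8 and 93.5 RPKM in 5iLA H7 for the same shRNAs, at 89.3, 97.2 and 119 in t2iGo H1 and at 280, 287 and 235 in primed H1. Among the 9 shRNA libraries EIF4A1 was thus higher in every primed H1 library than in any other, where SNORA48 was lowest, while EIF4A2 in uCCNE1 primed H1 lay below control 5iLA H7. In the untreated pair EIF4A2 had 90.7 RPKM in 5iLA H7 and 106 in primed H7, and RPL10 had 44.7 and 22.4, while SNORA63 and SNORA70 differed 9.69-fold and 16.1-fold in FPM.

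**Figure D5:**
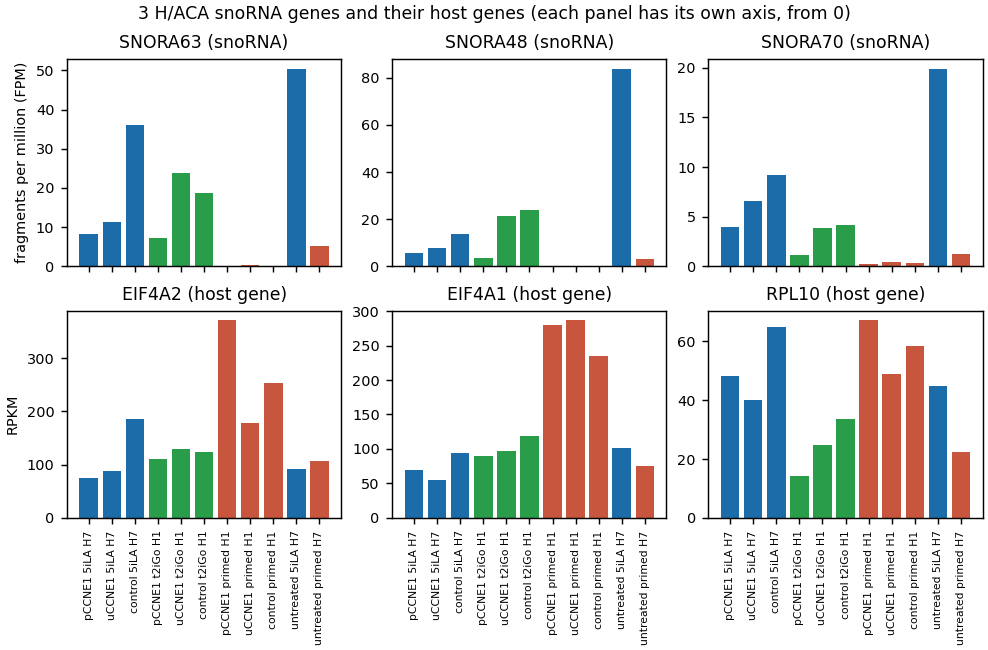
FPM of 3 H/ACA snoRNA genes (top) and RPKM of the host gene of each (bottom) in the 11 libraries (x), bars coloured by culture, axes linear from 0 and separate for each panel, 1 library per bar. In primed H1 the bars of EIF4A2 reach 371 RPKM while those of SNORA63 are at most 0.318 FPM.

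Near-identical copies limit what single symbols mean. SNORA11D and SNORA11E are 100% identical and held the same values in every library. SNORA7A and SNORA7B share 98.6% of bases, SNORA36A and SNORA36C 97.0%, SNORA80 and SNORA80B 91.9%, SNORA14A and SNORA14B 91.1%, SNORA71B and SNORA71D 90.3%, and SNORA70 shares 90.4% with SNORA70B and with SNORA70C. Values of these genes are uncertain to the extent that reads were split among copies. SNORA62 and SNORA63 were looked at because depletion of their counterparts in frog oocytes impairs processing of ribosomal RNA precursors: SNORA63 was among the most abundant genes here and SNORA62 never passed 2 fragments in a library. SNORA73A and SNORA73B, of the same kind, were not analysed here.

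Genes for proteins that make up or assemble H/ACA particles were listed along with the telomerase RNA TERC. Of 14 listed genes tested, 10 fell in t2iGo against primed H1 and 0 rose, beside 63% and 8.77% of all genes. In 5iLA against primed H1 12 fell and TERC rose, beside 76.8% and 7.74% of all genes. These shares lie near those of all genes. Dyskerin (DKC1), the pseudouridine synthase, stood at 20.7 (pCCNE1), 18.9 (uCCNE1) and 35.9 RPKM (control) in 5iLA H7, at 21.1, 21.8 and 23.1 in t2iGo H1 and at 68.3, 73.5 and 60.4 in primed H1, with 25.9 in untreated 5iLA H7 and 16.6 in untreated primed H7. DKC1 fell by 1.57 ± 0.23 in t2iGo against primed H1 (adjusted p = 8.45e-05), and so did its partners GAR1, which fell by 2.13 ± 0.23, NHP2, which fell by 2.42 ± 0.25, and NOP10, which fell by 1.36 ± 0.21. These calls depend on scaling: quantile normalization left 8 lower and 3 higher in t2iGo against primed H1 (33.1% and 34.2% of all genes), with DKC1, GAR1, NHP2 and NOP10 still lower, and in 5iLA against primed H1 it left 5 lower and 3 higher (35.2% and 30.6% of all genes), with GAR1 lower and DKC1, NHP2 and NOP10 not called. Rescaling on genes other than short RNAs left 6 lower and 4 higher in t2iGo against primed H1 (29.1% and 38.9% of all genes). DKC1, GAR1 and NHP2 were still lower there, and NOP10 was not called. For 5iLA against primed H1 it left 5 lower and 4 higher (33.5% and 31.5%), with GAR1 lower and DKC1, NHP2 and NOP10 not called. In 5iLA against t2iGo 3 rose (NHP2, the ATPase gene RUVBL2 and TERC) and 3 fell (RUVBL1, NUFIP1 and WRAP53). Of all genes 14.9% rose and 40.1% fell there. None of the 14 was called in an shRNA comparison.

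TERC, the telomerase RNA, carries an H/ACA domain and binds the same proteins, and is longer than the guides. It stood at 19.9 (pCCNE1), 18.6 (uCCNE1) and 31.2 RPKM (control) in 5iLA H7, at 0, 0 and 0.247 in t2iGo H1 and at 0.143, 0.497 and 0.183 in primed H1, with 7.73 in untreated 5iLA H7 and 9.76 in untreated primed H7. It rose by 4.22 ± 0.20 in 5iLA against primed H1 (adjusted p = 1.47e-08) and by 4.46 ± 0.20 in 5iLA against t2iGo (adjusted p = 3.67e-08). TERC was therefore low in t2iGo, where the guides were not. TERT, its protein partner in telomerase, did not pass the filter on low values.

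Other abundant short RNAs, which are no H/ACA guides, were also low in primed H1. RMRP, the RNA of RNase MRP, stood at 2.81 to 10.5 RPKM in primed H1, against 1262 to 19355 RPKM in all other libraries, and RPPH1, the RNA of RNase P, at 0.944 to 3.54 RPKM against 572 to 2744 RPKM. The summed share of the 24 SCARNA genes was 0.0110% to 0.0220% of RPKM in primed H1, against 0.846% to 1.73% elsewhere. How much of the gap between primed H1 and the other libraries belongs to library preparation was not tested. Untreated primed H7 had RMRP at 2834 RPKM. Untreated 5iLA H7 had 19355 RPKM of RMRP and 13.6-fold the H/ACA FPM of untreated primed H7.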

How the data were processed

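Total RNA was extracted with RNeasy Mini and sequenced from TruSeq RNA libraries, per the labels' protocols. The authors deposited RPKM values once per gene in 2 tables, of 9 and 2 libraries, treated here as normalised separately. TopHat2 2.3.0, Cufflinks 1.2.1 and the hg19 build are named per the submitters' processing notes; the sources used here state no strand, counting or annotation settings. Every column matched a labelled sample (0 unmatched). Genes of the members' name pattern were matched to GENCODE 29 (GRCh38) by identifier or symbol, for sequence, length and host only.

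Genes with a mean of at least 1 RPKM over the table were fitted in R 4.3.3 with limma 3.58.1 on log2(RPKM + 1), with culture and shRNA as terms (4 residual degrees of freedom, 2 with the added difference term), an intensity trend in the variance and Benjamini-Hochberg adjustment over all genes at 0.05. A fold change on that scale understates the change of low genes. Rows with no residual variance, mostly RNAs at 0 in nearly all libraries, had it offset by limma. A fragment's RPKM step was fitted in each library as a function of length; values were divided by it, rounded for counting intervals (95%, Poisson for sums and exact for ratios) and, with 0.5 added, tested as FPM. In the FPM fits all genes without a fragment estimate stayed on RPKM. The code was checked on simulated data. Single-library pairs had no test.

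Members named with values were the 8 highest over the 5iLA and t2iGo shRNA libraries and the 3 highest in primed H1, up to 6 of smallest p per comparison (or 3 per direction where none passed), the largest differences of at least 5 RPKM in pairs, members above 0 throughout, near-identical copies (90% identity) and SNORA62 and SNORA63; for pairs only some of them are given. A host gene and the sequences of 2 members are not reported here. The members and lists were chosen with earlier results of these data known. Alternatives were another pseudocount, no filter, quantile normalization, rescaling without short RNAs, no variance trend, leaving out a culture or an shRNA and, chosen after seeing the data, FPM. Counts over members with at least 10 fragments in a library outside the pair were also chosen after seeing the data.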

Additional observations from a re-analysis of the deposited data

Results flagged for a closer look

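The 16 values here are differences of an shRNA effect (log2(RPKM + 1)) between the 5iLA and t2iGo cultures together and primed H1, picked out because limma's test of that difference gave an adjusted p under 0.05. With the uCCNE1 shRNA the difference was -4.90 for SNORA28, -2.76 for SNORA4, 3.16 for SNORA8, -4.51 for SNORA57, 3.85 for SNORA42, -3.98 for SNORA45, -4.70 for SNORA6 and -2.94 for SNORA62. With the pCCNE1 shRNA it was -4.90 for SNORA28, -4.15 for SNORA4, -3.96 for SNORA72, -3.54 for SNORA57, -6.58 for SNORA7A, 3.85 for SNORA42, -8.98 for SNORA45 and -8.16 for SNORA6. SNORA42 was seen as 1 fragment, in control primed H1, and SNORA72 as 2, in pCCNE1 primed H1, among the 9 shRNA libraries. SNORA45 had 4 fragments with pCCNE1 in primed H1, and 1 each in control 5iLA and control t2iGo. SNORA6 had 3 with pCCNE1 in primed H1, and 4 each in control 5iLA and control t2iGo. SNORA28 had 2 in control 5iLA and 1 in control t2iGo, and SNORA4 had 3 with pCCNE1 and 1 with uCCNE1, all in primed H1. SNORA57 (9, 13 and 36 fragments in 5iLA with the pCCNE1, uCCNE1 and control shRNA; 2, 10 and 23 in t2iGo; 1, 4 and 0 in primed H1) and SNORA8 (6, 13 and 23.0; 2, 15 and 37.0; 2, 0 and 1) have more behind them in 5iLA and t2iGo than in primed H1. For SNORA8 and uCCNE1 the value is positive although both uCCNE1 libraries of 5iLA and t2iGo had fewer fragments than their controls, and on FPM the difference was -0.26 ± 0.34 (adjusted p = 0.984, limma). SNORA7A had 3.51, 8.71 and 43.6 fragments in 5iLA, 0.38, 8.92 and 19 in t2iGo and 1.80, 0 and 0 in primed H1. Of all 16, SNORA7A with pCCNE1 was the one also called on FPM. The part of single fragments in the others was not tested.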

How the results depend on the processing

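No paired analysis was possible because the labels give no replicate numbers; culture was a term of every shRNA fit. Counts are H/ACA genes called, in either direction. For uCCNE1 against control, 0 became 3 without primed H1, 24 without t2iGo, 7 with only the 6 libraries compared, and 1 without t2iGo on FPM. For pCCNE1 against control, 0 became 4 without primed H1, 23 without t2iGo, 4 without primed H1 on FPM and 7 without t2iGo on FPM. For pCCNE1 against uCCNE1, 0 became 17 without t2iGo and 2 on FPM besides. The smaller number of libraries leaves 2 residual degrees of freedom in these fits. For t2iGo against primed H1, 43 became 26 on FPM. For 5iLA against t2iGo, 27 became 9 with no filter, 17 on FPM and 15 without the control shRNA libraries. For the difference of the shRNA effect, 8 became 3 with no filter and 0 on FPM for uCCNE1, and 13 with a pseudocount of 0.1 and 1 on FPM for pCCNE1. At 4-fold in place of 2-fold, 50 became 30 in pCCNE1 5iLA and 45 became 22 in uCCNE1 5iLA. The cause of these changes was not tested. Of 105 alternative values of counts and shares, 74 stayed within 1.5 times of the main value and 31 did not. The length-weighted shares given below, a measure of another size, were all counted among the 31. Among alternative values for named genes, 376 kept direction and side of the threshold, 19 passed it newly and 30 lost it. The 1 that reversed was the difference of the uCCNE1 effect for SNORA8, at -0.26 on FPM.

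Weighted by transcript length, the H/ACA share of the RPKM total was 0.0205%, 0.0356% and 0.0584% in 5iLA H7 with the pCCNE1, uCCNE1 and control shRNA, 0.0258%, 0.0415% and 0.0315% in t2iGo H1, 0.000437%, 0.000473% and 0.000561% in primed H1, 0.0842% in untreated 5iLA H7 and 0.0102% in untreated primed H7. Few H/ACA fragments limit primed H1, where no gene with an estimate reached 10 although these libraries were the deepest of the 9. Depth limits pCCNE1 t2iGo H1, the shallowest at 7.10 M fragments. A value of 0 at 135 nt allows up to 234 RPKM there. That level also reflects the effective length of 1.81 nt, the shortest of all libraries.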
